A study of Homo sapiens with 6 samples.

Results

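The genes described here are 10 enzymes of serine synthesis and of folate one-carbon metabolism, taken by symbol from the authors' deposited table of 26364 genes. All 10 symbols were found. They comprise 3 enzymes of serine synthesis (PHGDH, PSAT1 and PSPH), 5 folate enzymes of the mitochondrion (SHMT2, MTHFD2, MTHFD2L, MTHFD1L and ALDH1L2) and 2 folate enzymes of the cytosol (SHMT1 and MTHFD1). The cells were REH, a long-used human cell line from an acute lymphoblastic leukaemia of B-cell precursors. They received the STAT3 inhibitor S3I-201, a synthetic compound, at 50 µM for 6 h, or DMSO, the solvent, for the same time. RNA sequencing libraries came from 3 independent experiments, which gave 3 libraries with S3I-201 and 3 with DMSO. No genotype was altered, and a single line limits the comparison to these cells.

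Cells make serine from the glycolytic intermediate 3-phosphoglycerate in a short linear route. Serine hydroxymethyltransferases then pass a carbon unit of serine to tetrahydrofolate and release glycine, and the folate enzymes oxidise that unit to formate or hand it to the synthesis of purines and thymidylate. The mitochondrion and the cytosol each have their own set of enzymes, linked by the exchange of serine, glycine and formate. The transcription factor ATF4, induced when amino acids are short or the endoplasmic reticulum is stressed, is a known activator of the serine synthesis genes and of several mitochondrial folate genes. Rapidly dividing lymphoid cells rely on the whole route for nucleotides, which is why antifolates are used against this leukaemia.

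The promoters below are shown because the genes behind them gave different results under the same treatment. RefSeq promoter sequences (GRCh38.p14) were matched for 7 of the 10 genes, all but PSPH, SHMT2 and ALDH1L2, with 11 windows in all, since some genes have several start sites. The 250 bases before the start site were searched on both strands for 10 patterns, of which 3 are described, a choice made after the results and the matches had been seen. The 3 are TGATGNAA, the core of the composite element bound by ATF4 with C/EBP proteins, CACGTG, the E-box bound by MYC with MAX, and CCAAT, bound by NF-Y. Capitals mark matches, and a CCAAT match on the opposite strand reads ATTGG. Sequences run 5′ to 3′ on the gene's strand and end at the base before the start site. The first pair belongs to genes that were higher with S3I-201 and the second pair to the cytosolic folate genes, which did not pass the test.
PSAT1, chr9:78296875-78297124, plus strand: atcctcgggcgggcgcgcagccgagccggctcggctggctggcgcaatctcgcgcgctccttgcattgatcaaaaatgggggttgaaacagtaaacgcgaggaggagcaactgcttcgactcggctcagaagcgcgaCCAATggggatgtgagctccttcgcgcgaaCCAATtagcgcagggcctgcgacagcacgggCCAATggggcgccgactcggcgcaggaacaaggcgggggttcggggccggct
MTHFD2, chr2:74198365-74198614, plus strand: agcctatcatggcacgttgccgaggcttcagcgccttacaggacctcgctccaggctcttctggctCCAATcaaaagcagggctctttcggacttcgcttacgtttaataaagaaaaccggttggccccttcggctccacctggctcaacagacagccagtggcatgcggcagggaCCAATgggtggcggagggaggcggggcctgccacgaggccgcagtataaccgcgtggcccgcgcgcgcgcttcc
SHMT1, chr17:18363551-18363800, minus strand: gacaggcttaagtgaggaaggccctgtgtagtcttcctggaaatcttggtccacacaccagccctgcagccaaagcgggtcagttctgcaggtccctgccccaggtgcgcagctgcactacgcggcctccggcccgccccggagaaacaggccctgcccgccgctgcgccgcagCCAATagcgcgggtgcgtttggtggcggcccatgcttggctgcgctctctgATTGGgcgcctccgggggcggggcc
MTHFD1, chr14:64388103-64388352, plus strand: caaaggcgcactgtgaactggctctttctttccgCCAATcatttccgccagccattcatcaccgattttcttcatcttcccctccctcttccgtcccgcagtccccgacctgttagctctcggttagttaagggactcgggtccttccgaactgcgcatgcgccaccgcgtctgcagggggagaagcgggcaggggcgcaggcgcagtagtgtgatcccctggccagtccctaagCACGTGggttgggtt

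PSAT1 had 3 CCAAT matches, starting 113, 83 and 52 bases upstream, and MTHFD2 had 2, at 184 and 74 bases. SHMT1 also had 2, at 76 and 25 bases, and MTHFD1 had 1 at 216 bases beside an E-box 15 bases upstream. Of the genes whose windows are not printed in full, PHGDH, also higher, had 1 CCAAT match. MTHFD1L, higher as well, had 1 in each of windows 1, 2 and 3 and 0 in window 4, and MTHFD2L had 0. CCAAT occurred in 6 of the 7 genes with a window, both higher genes and others, and in 37% of all 27305 genes with a window (32% of 35116 windows). TGATGNAA occurred in 1 of the 7, MTHFD1L, against 3.89% of all genes (3.14% of windows), and CACGTG in 2, MTHFD1L and MTHFD1, against 7.73% of all genes (6.34% of windows). Matches of different motifs overlapped in 0 cases in these 11 windows. For MTHFD1L, the 30 bases around TGATGNAA are shown because no other window of these genes held it. The match starts 90 and 129 bases before the start sites of 2 of its 4 windows.
MTHFD1L, chr6:150866346-150866375, plus strand: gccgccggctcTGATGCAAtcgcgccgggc
The other 7 patterns were variants of these and patterns meant for elements bound by other stress factors. TGATGCAA and TGATGNAAN occurred in MTHFD1L alone of the 7 genes, against 0.967% and 3.87% of all genes. TGANGNAA occurred in MTHFD1L and MTHFD1, against 15.2% of all genes. A pattern with a wider gap between TGA and GC than TGACNNNGC occurred in PSAT1, MTHFD2 and SHMT1, against 40.6% of all genes (35.8% of windows). Its spacing is not that of the antioxidant response element, so these matches do not describe such an element. TGACGCAA, TGACNNNGC and the endoplasmic reticulum stress element occurred in 0 of the 7, against 0.604%, 13.2% and 0.0916% of all genes.
A match describes letters only, and the absence of one in a window of this length says nothing about a factor.

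All values rest on the authors' deposited table. For each gene it holds the mean normalized count over the 6 libraries together with the log2 fold change and both forms of the p-value, so no value per library can be shown for most genes. The reference of the fold change is not stated there. The deposited comparison is named DMSO vs S3I-201, an order that does not say which group is the reference. A positive value was taken to mean higher with S3I-201, and under the opposite reading every direction in this text would turn. The fold changes appear shrunken towards 0, since for the 959 genes seen with a single read they were only 0.033 to 0.042 in size, so changes before shrinkage may be larger. Steps of a single read gave 6 size factors and, scaled by the sum of the means, about 6560000 to 14500000 counts per library. The SE given below is implied by the authors' fold change and p-value, and the levels in S3I-201 and DMSO are implied by the mean and the fold change. Fewer cells with a transcript and less transcript per cell cannot be told apart in such bulk libraries. Of 10 B-precursor markers, 9 had mean normalized counts of 1041 to 13622 in the authors' deposited table and VPREB1 was listed at 0. Of the 8 with an adjusted p, 0 passed 0.05 and 2 had an unadjusted p under it, and DNTT came nearest (DESeq2 adjusted p = 0.162). Of 6 T and NK markers, 5 were at 0 and NKG7 had 13.7. MPO had 978 and COL1A1 40.6, the highest of 5 myeloid and of 5 stromal and epithelial markers in the authors' deposited table.

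Serine synthesis and the main mitochondrial folate enzymes were higher after S3I-201, while the cytosolic folate enzymes did not pass. An adjusted p was given for 9 of the 10 genes, of which 6 were higher at 0.05 by the authors' DESeq2 values, 0 were lower and 3 did not pass, with 0 lower also at an unadjusted p under 0.05. Over all 11912 genes with an adjusted p, 4.45% were higher and 1.45% lower, or 5.9% in either direction. At 0.01 the same 6 enzymes were higher, against 3.05% of all genes, and with a log2 fold change of at least 1 required as well, 3 were higher, against 1.31%. With the Benjamini-Yekutieli adjustment 5 were higher, against 2.69% of all genes. The other alternatives left 6 higher, against 5.27% at a threshold of 0.1, 2.92% when the 16974 genes that have any p-value entered the adjustment, 4.66% over the 9373 with a mean of at least 100, 4.71% after centring on the median and 4.81% after removal of the median in 20 abundance bins. By role, 3 of 3 serine synthesis genes, 3 of 5 mitochondrial folate genes and 0 of 2 cytosolic folate genes were higher. The median log2 fold change of the 9 was 0.60, against -0.02 over all genes with an adjusted p. It was 1.27 for serine synthesis, 0.57 for the 4 mitochondrial genes with an adjusted p and -0.20 for the cytosolic pair. These counts compare genes measured in the same 6 libraries, and their errors are not independent.

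**Figure D1:**
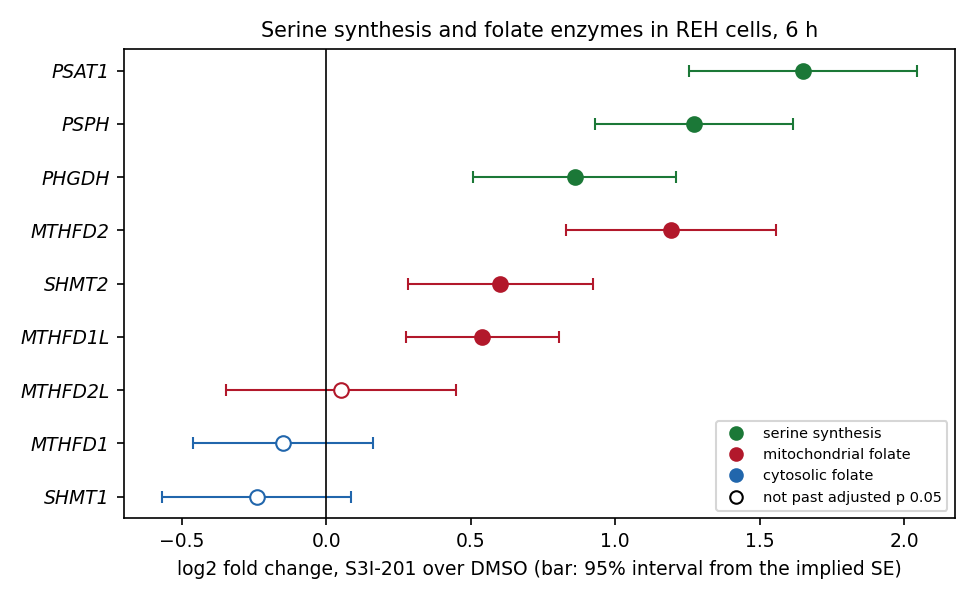
Log2 fold change of S3I-201 over DMSO (x axis) for the 9 genes with an adjusted p (y axis, grouped by role), with bars for the 95% interval from the implied SE. Filled points passed an adjusted p of 0.05, and the 3 serine synthesis genes lie between 0.86 and 1.65, while the intervals of MTHFD2L, MTHFD1 and SHMT1 include 0.

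PHGDH, phosphoglycerate dehydrogenase, catalyses the first and committed step of serine synthesis. Its implied level was 6956 normalized counts in S3I-201, against 3834 in DMSO. The log2 fold change in the authors' deposited table was 0.86 (implied SE 0.18, DESeq2 adjusted p = 0.000107), a 1.81-fold increase. With a mean normalized count of 5395 it was the most abundant of the 10 genes, also per length, at 2087 counts per kb of transcript. The gene lies on chromosome 1 from 119711934 to 119744215 (hg38, whole gene).

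PSAT1, phosphoserine aminotransferase, takes the amino group from glutamate for the next step and had the largest fold change of the 10 genes. Its implied level was 1617 normalized counts in S3I-201, against 516 in DMSO. The log2 fold change was 1.65 in the authors' deposited table (implied SE 0.20, DESeq2 adjusted p = 1.09e-13), a 3.14-fold increase, and 33rd from the top among the 11912 genes with an adjusted p. The gene lies on chromosome 9 from 78297125 to 78330093. Reads of PSAT1 could be shared with the processed pseudogenes PSAT1P1 and PSAT1P3, which match 50.9% of its principal transcript at identities of 92.1% and 95.2% in GENCODE 29.

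PSPH, phosphoserine phosphatase, removes the phosphate and so completes serine synthesis. Its implied level was 704 normalized counts in S3I-201, against 291 in DMSO. With 1.27, its log2 fold change ranked second of the 3 in the authors' deposited table (implied SE 0.17, DESeq2 adjusted p = 6.38e-11), a 2.42-fold increase. The gene lies on chromosome 7 from 56011064 to 56051444. Within the route, the log2 fold change of PSAT1 exceeded that of PHGDH by 0.79, with a 95% interval of 0.26 to 1.32 if the errors of both genes are taken as independent. PSPH exceeded PHGDH by 0.41, with an interval of -0.08 to 0.90 that includes 0. Per kb of transcript, PSAT1 stood at 0.275 of the implied level of PHGDH in S3I-201 and at 0.159 in DMSO, while PSPH stood at 0.120 in S3I-201 and at 0.0902 in DMSO. The first enzyme of the route thus had the highest level and the smallest fold change of the 3.

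MTHFD2, the mitochondrial NAD-dependent methylenetetrahydrofolate dehydrogenase and cyclohydrolase, had the largest fold change of the folate enzymes. It is known as an enzyme of embryonic and dividing cells. Its implied level was 4334 normalized counts in S3I-201, against 1894 in DMSO. In the authors' deposited table its log2 fold change was 1.19 (implied SE 0.19, DESeq2 adjusted p = 1.86e-08), a 2.29-fold increase. The gene lies on chromosome 2 from 74198615 to 74217565. On the opposite strand, exons of SLC4A5 cover 1324 bases, or 29.7%, of the MTHFD2 exons in GENCODE 29, and the library kit does not mark strand. The mean normalized count was 3114 for MTHFD2, against 27.2 for SLC4A5, in the authors' deposited table. How reads in the shared exons were counted is not known here, so both levels, and that of MTHFD2 per kb, may be affected.

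SHMT2, the mitochondrial serine hydroxymethyltransferase, feeds carbon units from serine into mitochondrial folate. Its implied level was 4559 normalized counts in S3I-201, against 3004 in DMSO. In the authors' deposited table its log2 fold change was 0.60 (implied SE 0.16, DESeq2 adjusted p = 0.00671), a 1.52-fold increase. With the stricter Benjamini-Yekutieli adjustment of the authors' p-values SHMT2 did not pass (adjusted p = 0.0669), while under the other adjustments and centrings its adjusted p lay between 0.00146 and 0.00950. The minimum log2 fold change of 1 also leaves it out. The gene lies on chromosome 12 from 57229711 to 57234935. On the opposite strand, the antisense gene AC137834.2 covers 427 bases, or 14.1%, of the SHMT2 exons. AC137834.2 is not listed under that symbol in the authors' deposited table, so its own level is not known here.

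MTHFD1L, the mitochondrial formyltetrahydrofolate synthetase, releases formate, which the cytosol can use. Its implied level was 1644 normalized counts in S3I-201, against 1131 in DMSO. The log2 fold change was 0.54 in the authors' deposited table (implied SE 0.14, DESeq2 adjusted p = 0.00237), a 1.45-fold increase, and the smallest of the 6 that passed. The gene lies on chromosome 6 from 150865702 to 151101887, and the bases printed above with TGATGNAA lie within it.

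MTHFD2L and ALDH1L2 are the mitochondrial folate enzymes for which no increase was called. MTHFD2L, which catalyses the same reactions as MTHFD2, had implied levels of 89.3 normalized counts in S3I-201 and 86.2 in DMSO. Its log2 fold change was 0.05 in the authors' deposited table (implied SE 0.20, DESeq2 adjusted p = 0.952), with a 95% interval of -0.35 to 0.45. MTHFD2L lies on chromosome 4 from 74114560 to 74303099. The log2 fold change of MTHFD2 exceeded it by 1.14, with an interval of 0.60 to 1.68 if errors are independent. Per kb of transcript MTHFD2 stood 25.1-fold above MTHFD2L in S3I-201 and 11.3-fold above it in DMSO.

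ALDH1L2, the mitochondrial formyltetrahydrofolate dehydrogenase, oxidises the carbon unit to carbon dioxide and yields NADPH. The authors' deposited table lists it with a mean of 0.910 normalized counts and no adjusted p. To within 2.4e-08 normalized counts, that mean could be written in 1 way as whole reads of the 6 libraries (also in 1 way to within 2.4e-05), 0, 2 and 1 reads on the S3I-201 side and 0, 1 and 1 on the DMSO side. Sides were assigned by the sign of the fold changes of genes with a single read. The reads per library overlap between the groups, and the sums of 3 and 2 reads are too few to show a change at this depth. ALDH1L2 lies on chromosome 12 from 105019790 to 105084458.

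**Figure D2:**
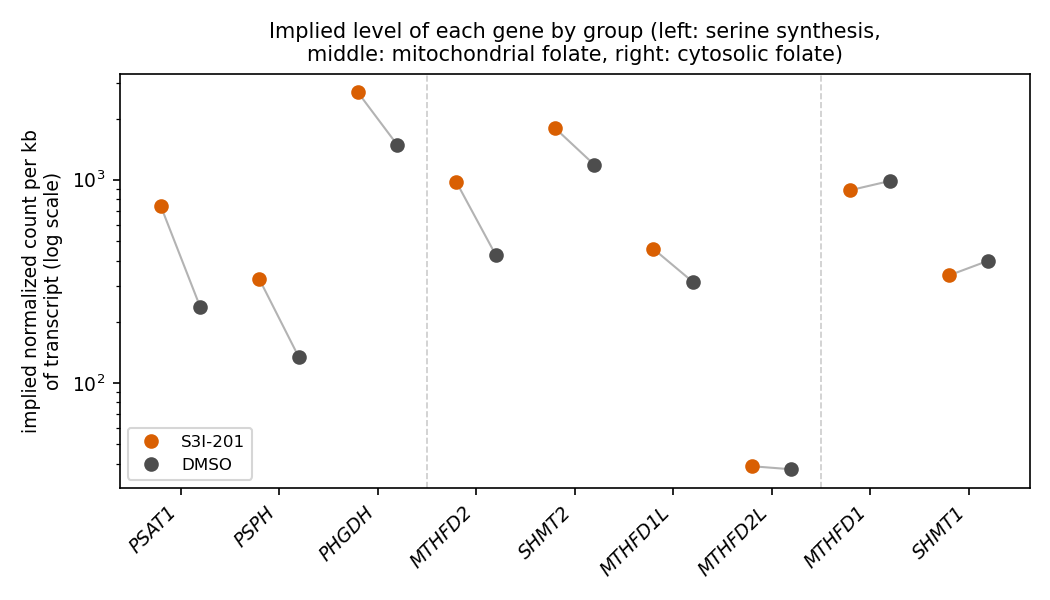
Implied normalized count per kb of principal transcript (y axis, log scale) for the 9 genes with an adjusted p (x axis, in 3 blocks by role), with S3I-201 left of DMSO and a line joining both points of a gene. PHGDH is highest at 2691 in S3I-201 and 1483 in DMSO, and MTHFD2L lowest at 38.8 and 37.5. Both cytosolic genes slope the other way from the 6 genes that passed, but neither passed and the intervals of both fold changes include 0.

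SHMT1, the cytosolic serine hydroxymethyltransferase, had implied levels of 833 normalized counts in S3I-201 and 984 in DMSO. Its log2 fold change was -0.24 in the authors' deposited table (implied SE 0.17, unadjusted p = 0.150, DESeq2 adjusted p = 0.544), with a 95% interval of -0.57 to 0.09. SHMT1 lies on chromosome 17 from 18327873 to 18363550, and 196 bases, or 6.95%, of its exons overlap SMCR8 on the opposite strand, which had a mean of 1182. Reads could also be shared with the processed pseudogene SHMT1P1, which matches 53.9% of its principal transcript at 91.1% identity.

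MTHFD1, the cytosolic enzyme that joins synthetase, cyclohydrolase and dehydrogenase in 1 protein, had implied levels of 2786 normalized counts in S3I-201 and 3091 in DMSO. Its log2 fold change was -0.15 in the authors' deposited table (implied SE 0.16, unadjusted p = 0.344, DESeq2 adjusted p = 0.742), with a 95% interval of -0.46 to 0.16. MTHFD1 lies on chromosome 14 from 64388353 to 64460025. Its processed pseudogene MTHFD1P1 matches 89.5% of the principal transcript at 93.1% identity, so its reads too could be shared. Such copies are named here from matches of at least 25% of a principal transcript, a limit set after the matches had been seen. Less alike were MTHFD2P1, with 29.7% of MTHFD2 at 87.8% identity, and AC023078.6, with 26.0% of MTHFD1L at 88.2%.

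Both compartments carry an enzyme for each main step, and their fold changes differed step by step. SHMT2 exceeded SHMT1 by 0.84 on the log2 fold change scale, with a 95% interval of 0.38 to 1.30 if the errors are independent. MTHFD1L exceeded MTHFD1, which has the same synthetase activity, by 0.69 (interval 0.28 to 1.10), and MTHFD2 exceeded MTHFD1, which shares the dehydrogenase activity, by 1.34 (interval 0.87 to 1.82). The table does not give the covariance of genes within libraries, so no p is attached to these differences. In levels per kb, SHMT2 stood 5.32-fold above SHMT1 in S3I-201 and 2.97-fold above it in DMSO. The level of MTHFD1L was 0.514 of that of MTHFD1 in S3I-201 and 0.318 in DMSO, and the level of MTHFD2 was 1.09 times that of MTHFD1 in S3I-201 and 0.431 in DMSO. These MTHFD1 ratios depend on the transcript length used, since the principal transcript of MTHFD1 has 3.136 kb and all its exons together 6.908 kb. With all exons, the pooled ratio of MTHFD1L to MTHFD1 was 0.853 in place of 0.411, and that of MTHFD2 to MTHFD1 was 1.64 in place of 0.746, which turns their order.

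Summed per kb, the implied levels of the 3 serine synthesis genes were 3753 in S3I-201 and 1853 in DMSO, a ratio of 2.03. The 5 mitochondrial folate genes summed to 3265 in S3I-201 and 1961 in DMSO, a ratio of 1.67. The 2 cytosolic folate genes summed to 1226 in S3I-201 and 1385 in DMSO, a ratio of 0.885. PHGDH and SHMT2 carried most of the sums of their groups. In S3I-201, the order of implied levels per kb was PHGDH at 2691, SHMT2 at 1797, MTHFD2 at 973, MTHFD1 at 888, PSAT1 at 739, MTHFD1L at 456, SHMT1 at 338, PSPH at 323 and MTHFD2L at 38.8. In DMSO it was PHGDH at 1483, SHMT2 at 1184, MTHFD1 at 986, MTHFD2 at 425, SHMT1 at 399, MTHFD1L at 314, PSAT1 at 236, PSPH at 134 and MTHFD2L at 37.5. ALDH1L2 was last in both. With all exons as the length, the pooled level of MTHFD1 was 425 in place of 937, below MTHFD2 at 699 and PSAT1 at 487. Neighbours in these orders such as SHMT1 and PSPH in S3I-201 cannot be separated, since the table holds no spread of levels between libraries.

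**Figure D3:**
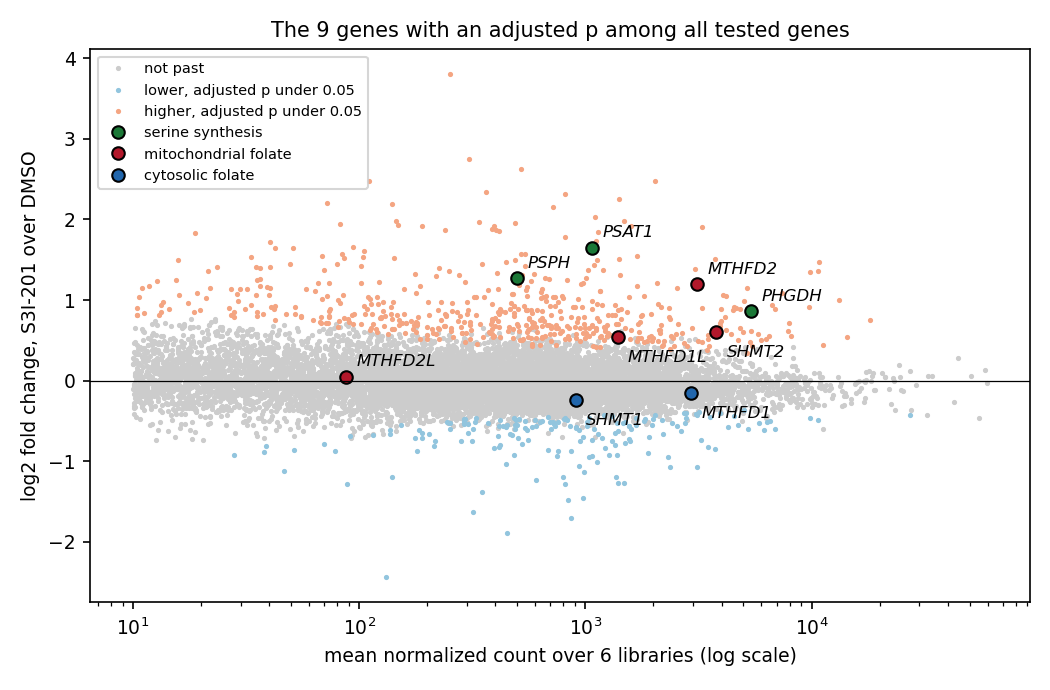
Log2 fold change of S3I-201 over DMSO (y axis) against the mean normalized count over 6 libraries (x axis, log scale) for the 11912 genes with an adjusted p, coloured by call, with the 9 described genes as large points. PSAT1 at 1.65, PSPH at 1.27 and MTHFD2 at 1.19 lie among the genes called higher, while SHMT1 and MTHFD1 lie inside the grey band of genes that did not pass.

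Among the 11912 genes, PSPH ranked 79th, MTHFD2 97th, PHGDH 233rd, SHMT2 488th and MTHFD1L 601st from the highest log2 fold change in the authors' deposited table. MTHFD2L ranked 4508th, MTHFD1 8704th and SHMT1 10173rd. The 6 genes that passed were well expressed, with means of 498 to 5395 against a median of 410 over all genes with an adjusted p.

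Beyond the 10 enzymes, 6 lists of serine and folate genes were read, chosen with earlier results of these data known. Of their 42 genes, 32 came with an adjusted p, of which the authors' deposited table gave 4 higher, 0 lower and 28 not past, and the median log2 fold change was 0.04. All 4 higher genes came from the list called serine carriers, which also takes in SERINC genes. In that list 4 of 10 were higher and 6 did not pass, with a median of 0.42. Among those 6 were SFXN1 at -0.16 (DESeq2 adjusted p = 0.707), SFXN2 at -0.29 (adjusted p = 0.415) and SFXN3 at 0.25 (adjusted p = 0.648). Over all genes with an adjusted p, 4.45% were higher and the median was -0.02.

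SLC1A4, an exchanger of serine, alanine and cysteine, had implied levels of 1782 normalized counts in S3I-201 and 496 in DMSO. Its log2 fold change was 1.85 in the authors' deposited table (implied SE 0.19, DESeq2 adjusted p = 2.26e-19), above that of every one of the 10 enzymes. SLC1A5, which carries glutamine and small neutral amino acids, stood at 0.91 (DESeq2 adjusted p = 3.99e-08) and SLC38A2, a sodium-coupled carrier of small neutral amino acids, at 0.83 (adjusted p = 0.00155), both from the authors' deposited table. SERINC1, a membrane protein named for a part in serine incorporation into lipids, had 0.56 (adjusted p = 0.0251, and 0.250 with the Benjamini-Yekutieli adjustment, where its call is lost, as it is at a threshold of 0.01), while SERINC3, at 0.38, did not pass (adjusted p = 0.157) by the authors' deposited DESeq2 table.

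By the authors' deposited DESeq2 table, in the other 5 lists 0 of 22 genes passed among those with an adjusted p, and 1 had an unadjusted p under 0.05. With 5.9% of all genes past in either direction, a count of 0 among 22 is near the background and shows nothing particular to these lists. The gene with an unadjusted p under 0.05 was SLC19A1, the reduced folate carrier through which methotrexate also enters, with implied levels of 681 normalized counts in S3I-201 and 919 in DMSO and a log2 fold change of -0.43 (adjusted p = 0.129). SLC25A32, the mitochondrial folate carrier and the only other folate carrier with an adjusted p among 6, had -0.17 (adjusted p = 0.693) in the authors' deposited DESeq2 table. Of the folate-using enzymes of nucleotide synthesis, 0 of 5 passed, with a median of 0.05, and ATIC, which acts late in purine synthesis, came nearest at -0.21 (adjusted p = 0.462) by the authors' deposited DESeq2 table. Of 6 other folate-interconverting enzymes with an adjusted p, MTHFSD came nearest at 0.26 (adjusted p = 0.490), and the list median was 0.00 in the authors' deposited DESeq2 table. The glycine cleavage system, which splits glycine in the mitochondrion and also charges folate, had 0 of 4 past and a median of -0.17, with GLDC at -0.36 (adjusted p = 0.566) by the authors' deposited DESeq2 table. Of 5 serine-consuming enzymes with an adjusted p, SRR, serine racemase, came nearest at 0.21 (adjusted p = 0.686), and the median was 0.05 in the authors' deposited DESeq2 table.

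**Figure D4:**
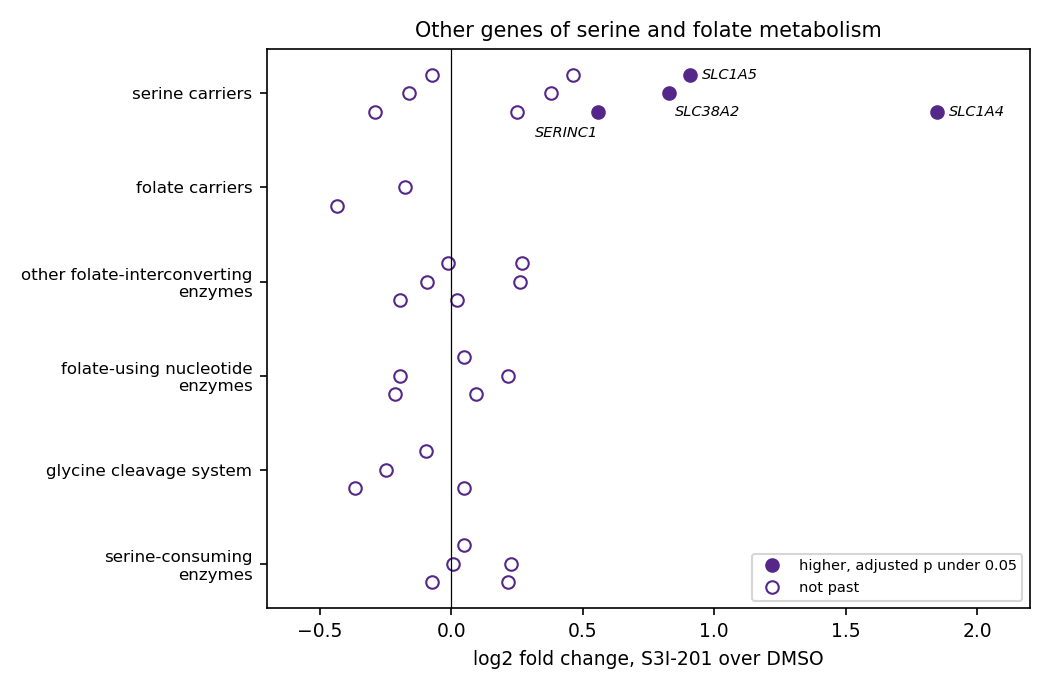
Log2 fold change of S3I-201 over DMSO (x axis) for the 32 genes with an adjusted p in 6 lists of serine and folate metabolism (y axis), each point a gene, filled where it passed an adjusted p of 0.05. The 4 filled points are all in the list called serine carriers, from SERINC1 at 0.56 to SLC1A4 at 1.85, and the other lists lie between -0.43 and 0.27.

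Of 3 transcription factors known to act on these enzymes, ATF4 had implied levels of 8946 normalized counts in S3I-201 and 4841 in DMSO. Its log2 fold change was 0.89 in the authors' deposited table (implied SE 0.15, DESeq2 adjusted p = 2.54e-07). NFE2L2, the oxidative stress factor NRF2, which acts on serine synthesis genes through ATF4, had 0.59 (implied SE 0.16, DESeq2 adjusted p = 0.00690) in the authors' deposited table. For MYC, a known activator of SHMT2 and other folate genes, the authors' deposited table gave -0.57 and no p-value, so no call can be read from it. The part of these factors in the results above was not tested.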

How the data were processed

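RNA-seq libraries of REH cells with S3I-201 or DMSO, 3 per group, were prepared by the TruSeq RNA v2 method, per the labels' protocols. The submitters' processing notes name hg38, bcl2fastq 2.19, Trimmomatic, Bowtie2, Picard, featureCounts and DESeq2, with no role or order. For the annotation and strand setting, nothing is given in the sources used here. The mean normalized count, a signal, the log2 fold change and the p-value with its adjusted p are the authors' deposited values, per the file headers, for all 6 libraries together.

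Genes with an adjusted p had means of at least 10.0, and 82 genes at or above that mean, MYC among them, had no p-value. The planned count test needs values per library, so the authors' adjusted p was used, with calls at 0.05. Computed here with Python 3.11.15, pandas 2.3.3 and SciPy 1.17.1 were implied SEs, 95% intervals, implied group levels, levels per kb (longest principal transcript, GENCODE 29), size factors, promoter matches and the alternatives. Simulated data checked only the implied SE formula, the p-value adjustments and the removal of an abundance trend. Levels, size factors, whole reads and promoter matches were not checked in this way. Named were all 10 enzymes, each list gene that passed, the nearest that did not, the SFXN genes of the carrier list and 3 transcription factors. Members, lists and motifs were chosen with earlier results of these data known, and the transcript length after values had been seen. DHFR2 was matched through its older symbol.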

Additional observations from a re-analysis of the deposited data

How the results depend on the processing

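With a minimum log2 fold change of 1, 3 of the 10 enzymes were higher (PSAT1, PSPH and MTHFD2) in place of 6, and 1 gene of the 6 lists (SLC1A4) in place of 4, because the smaller changes fall under that limit by construction. Over the other 7 alternatives, which were thresholds of 0.01 and 0.1, other gene filters, Benjamini-Yekutieli adjustment, centring and removal of the median in 20 abundance bins, 5 to 6 enzymes were higher and 0 lower. SHMT2 was lost with the Benjamini-Yekutieli adjustment (adjusted p = 0.0669), as was SERINC1 (0.250), which was also lost at 0.01, so that 3 list genes were higher in both cases. With the bin medians removed, MTHFD1 had a log2 fold change of -0.09 in place of -0.15 and SHMT1 -0.19 in place of -0.24. The principal transcript was taken as the length, in place of all exons, after values per kb had been seen. With all exons, an alternative added for that reason, the pooled level of MTHFD2 was 1.64 times that of MTHFD1, in place of 0.746, and that of MTHFD1L 0.853 times, in place of 0.411. No paired analysis was possible because the table pools the libraries, and leaving out replicates, edgeR and a DESeq2 refit were not run for the same reason. Fold changes appear shrunken, and the depth leaves ALDH1L2, with 5 reads in all, without a comparison.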
